A study of Mus musculus with 3 samples.

Results

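The nuclear genes of respiratory complexes II to V were examined in single-cell open chromatin maps of mouse kidney. Members were the genes of the mm10 annotation whose symbols are Sdha, Sdhb, Sdhc, Sdhd or Cyc1, or begin with Uqcr, Cox4i, Cox5, Cox6, Cox7, Cox8 or Atp5. The rule used names and no measured value. It gave 62 of 49943 annotated genes, of which 48 code for protein and 14 are pseudogenes. The coding members comprised 4 genes of complex II, 9 of complex III, 18 of complex IV and 17 of complex V. The maps came from mtscATAC-seq, in which permeabilised cells keep their mitochondria and a transposase cuts accessible DNA. All mice carried a point mutation of the mitochondrial glutamate tRNA gene, written trnE in the labels. Old replicate 1 was from kidney at 75 weeks of age with a 75% mutation load, old replicate 2 from kidney at 75 weeks with an 80% load, and the young library from kidney at 3 weeks with an 80% load. The load is the percent of mitochondrial genomes that carry the mutation, and every group carried it, so age was compared within mutant mice only.

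Electrons from succinate enter the chain at complex II (succinate dehydrogenase), pass complex III (cytochrome bc1 complex) and reach oxygen at complex IV (cytochrome c oxidase), and complex V (ATP synthase) uses the resulting proton gradient to make ATP. Complex II is coded by nuclear genes alone, whereas complexes III, IV and V also hold subunits made inside mitochondria, where a glutamate tRNA is needed for translation. Proximal tubule cells reclaim filtered solutes and are known for their dense mitochondria. Several subunits of cytochrome c oxidase exist as a ubiquitous form and as a form restricted to muscle, lung or testis.

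The libraries held 5315, 3950 and 3976 cells (old replicate 1 first, then old replicate 2, then young, as in all values given in threes). Median counts per barcode were 16288.5, 13338.5 and 23319.5, and 79 barcode sequences occurred in more than 1 library. Old replicate 1 stood apart, because it was mostly immune cells and held only 183 proximal tubule-like cells, against 3299 and 3101. Loop to collecting duct-like cells, a pool of the distal segments, numbered 27, 300 and 178, and endothelium-like cells numbered 164, 87 and 38. Macrophage or dendritic cell-like cells numbered 3334, 4 and 114, and T or NK cell-like cells 1213, 1 and 74. Within the proximal tubule-like class most young cells lay in clusters 2 and 3 (1601 and 1275 cells), and most cells of old replicate 2 lay in cluster 0 (2345 cells). Each of the clusters called proximal tubule-like had 10 to 13 of 15 proximal tubule markers raised. The young group is 1 library, and whether the 2 old libraries are of different mice is not stated in the labels. Spread within a group thus came from the 2 old libraries alone, and that spread could be technical. The test pooled it over genes. Degrees of freedom were 25550 and 17796 in proximal tubule-like and endothelium-like cells and 5.96 in loop to collecting duct-like cells. The p-values and the intervals of log2 changes therefore rest mainly on spread shared by genes, and not on each gene's own.

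Levels are CPM, counts scaled to the same total for each class and library, over regions called as peaks in every library, termed common regions. Start levels of members that are ranked or set beside other coding genes also use common regions only. Start and end levels of isoforms, those of ATP synthase subunit c included, instead count every peak there, also one called in a single library. Levels per kb are divided by the counted peak bases of that library. Of the coding members, 46 had a common region within 2 kb of the gene body, as did 2 pseudogenes, Atp5l-ps2 and Atp5l2-ps. Cox8b and Cox8c had no peak there in any library. Counted regions of 24 coding members also lay in the window of another coding gene, and 9 shared their start region with one. Sdhd shared it with Timm8b, Atp5j with Gabpa, Sdha with Ccdc127 and Uqcrh with Lrrc41. Counts are of open DNA and not of RNA. Intervals are exact 95% Poisson intervals computed on fragments and cover counting error only.

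Start levels were compared among the 11066 coding genes with a common region within 1 kb of the annotated start. Of these 34 were members, and most members lay above the median of the 11066 in every class. In proximal tubule-like cells 27, 30 and 29 of the 34 did. Their median start level there was 49.3, 43.7 and 46.8 CPM per kb of peak, against 31.9, 29.2 and 31.3 for the 11066 genes. The 14 coding members with no region at the start were left out. Cox7b2 and Cox8b had no peak there, and the others had no annotated start. In T or NK cell-like cells of old replicate 1 the medians were 76.3 and 44.0 CPM per kb. The members did not form one level. Across 14 values, each from 1 class in 1 library, Atp5g1, 1 of 3 genes for the c subunit of the ATP synthase rotor, ranged from 129 to 330 CPM per kb and ranked highest of the 34 in each. Atp5j, which codes for a coupling factor of the stalk, and Atp5b, the catalytic β subunit, followed with medians of 116 and 115 CPM per kb. Sdhb, the iron-sulphur subunit of complex II, had a median of 101.5 CPM per kb (48.7 to 148), while Sdha, its flavoprotein partner, had 33.0 CPM per kb (29.3 to 79.5). The lowest medians belonged to Cox6b2, Cox7b and Cox7a1, with 17.2, 17.98 and 24.8 CPM per kb.

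**Figure D1:**
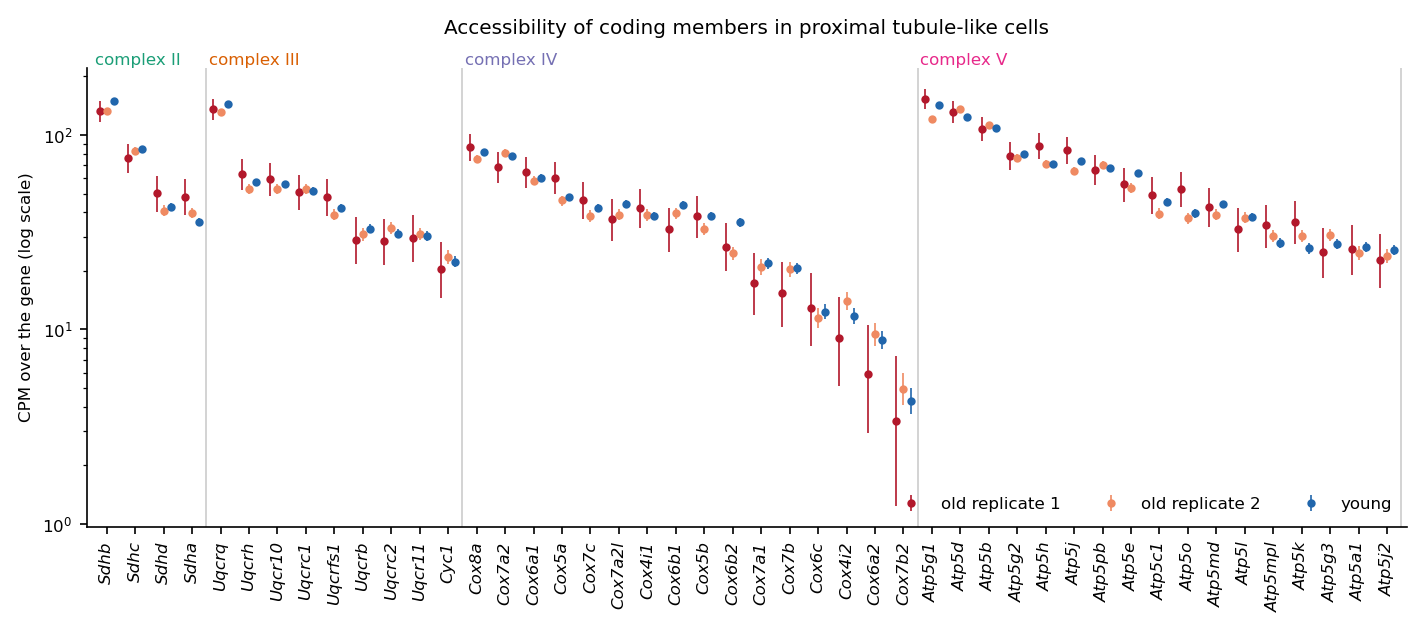
Accessibility over the gene body with 2 kb on each side in proximal tubule-like cells, as CPM on a log axis, for the 46 coding members with a common region, ordered by complex and level. Points are libraries and bars are exact 95% Poisson intervals (counting error only). The libraries lie close together for most genes, from Atp5g1 at 154, 120 and 143 CPM down to Cox7b2 at 3.37, 4.96 and 4.30 CPM, and the bars of old replicate 1 are the widest.

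Summed over the 48 members with a common region, levels in proximal tubule-like cells were 2452, 2326.5 and 2431 CPM. Complex II gave 307, 297 and 313 CPM, complex III 464, 448 and 467 CPM, complex IV 567, 555 and 590 CPM, and complex V with its 2 pseudogenes 1114, 1027 and 1060 CPM. For complexes II, III and IV the young sum was the highest of the 3 libraries, and for complex V it lay between the old ones. The sum over all members was 2582, 2527 and 2722 CPM in loop to collecting duct-like cells and 2802, 2830 and 2630 CPM in endothelium-like cells. It was higher in immune classes, at 3296 CPM in macrophage or dendritic cell-like cells of old replicate 1, 3316 CPM in those of the young library, and 3636 and 3513 CPM in T or NK cell-like cells of the same libraries. Coding genes with a common region at the start were also higher there. In old replicate 1 the start of most members was higher in T or NK cell-like than in proximal tubule-like cells. The median difference on the log2(CPM + 1) scale was 0.62 for members and 0.52 for these coding genes. Above 0 lay 32 of 34 members and 67.2% of the coding genes. In the young library the medians were 0.54 and 0.38, with 26 of 34 members and 62.4% of coding genes above 0. For macrophage or dendritic cell-like cells of old replicate 1 the medians were 0.52 and 0.40. In neutrophil-like cells of old replicate 1 they lay further apart, at 0.70 for members and 0.060 for coding genes. There 29 of 34 members and 51.4% of coding genes lay above 0. Classes were made from the same counts, so these differences are descriptions and carry no test.

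Tissue isoforms were compared within 1 kb of their annotated starts. For 12 coding members the promoter table used here had no entry, and for these both gene ends were counted. In 83 of 84 comparisons, 6 isoform pairs in 14 class and library values, the restricted form was lower per kb of peak than the ubiquitous one. In 33 of these the restricted form had no peak in that library, so the outcome was fixed: all 14 values of Cox7b2, all 14 of Cox8b and 5 of Cox6a2. Of the 51 others it was lower in 50. The exception was Cox6b2 in young proximal tubule-like cells. Not all of the 51 compare start with start. The 9 values of Cox6a2 are over both gene ends and were set against Cox6a1 at its start. The 14 of Cox4i2, like those of Cox4i1, are over both gene ends. Over whole gene bodies the restricted form was lower in 78 of 84. There the outcome was again fixed for the 14 values of Cox8b, which had no peak.

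Cox6b1 and Cox6b2 code for the ubiquitous and the testis form of a subunit that faces the intermembrane space. At the start, Cox6b1 had 27.5, 31.9 and 36.7 CPM in proximal tubule-like cells, or 30.7, 35.7 and 40.8 CPM per kb of peak. Cox6b2 had 19.4 (95% interval 13.7 to 26.6), 20.5 (18.7 to 22.4) and 31.3 CPM (29.7 to 33.1), or 23.0, 25.4 and 43.3 CPM per kb. Per kb the testis form was lower than the ubiquitous form in both old libraries and higher in the young one. The young value depends on the cells counted: over the gene body young Cox6b2 had 35.6 CPM in the whole class and 16.3 CPM in the clusters that held at least 10 cells of every library, against 43.8 and 43.3 CPM for Cox6b1. In loop to collecting duct-like cells Cox6b2 had 35.4 (13.0 to 77.1), 16.2 (10.4 to 24.2) and 18.7 CPM (11.4 to 28.9), with wide intervals. Its values were lower in the endothelium and immune classes. Endothelium-like cells had 4.63 (1.26 to 11.9) and 2.90 CPM (0.0735 to 16.2) in the old libraries, and 0 counts in the young one, which allows up to 6.58 CPM at 3 counts. Macrophage or dendritic cell-like cells had 10.4 CPM (9.06 to 11.9) in old replicate 1 and 11.5 CPM (5.26 to 21.9) in the young library. T or NK cell-like cells had 2.54 CPM (1.39 to 4.25) in old replicate 1 and 13.4 CPM (2.76 to 39.1) in the young library, where the interval spans the proximal tubule-like level. Within old replicate 1 the interval of the proximal tubule-like level lay above those of the macrophage, T cell, endothelium and neutrophil classes. The peak of old replicate 1 covered the annotated start of Cox6b2, whereas the nearest peak began 174 bases downstream in old replicate 2 and 230 bases downstream in young kidney. The regions counted over the gene body of Cox6b2 also lie in the windows of Fam71e2 and Kmt5c.

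The upstream sequences of both forms are shown because they differ in letters as well as in level. Here and below a sequence runs from 250 bases before to 30 bases after the start, in RefSeq coordinates of GRCm38.p6 (mm10), on the minus strand for Cox6b1 (chr7:30626085-30626364) and Cox6b2 (chr7:4753065-4753344). Capitals mark the motifs searched: NRF1 (a palindrome, and its core GCATGCG), ETS as bound by GABP (CCGGAAG), YY1 (AAGATGGC), CCAAT, Sp (GGGCGG), ERR (AAGGTCA), E-box (CACGTG) and MEF2, on both strands.
Cox6b1: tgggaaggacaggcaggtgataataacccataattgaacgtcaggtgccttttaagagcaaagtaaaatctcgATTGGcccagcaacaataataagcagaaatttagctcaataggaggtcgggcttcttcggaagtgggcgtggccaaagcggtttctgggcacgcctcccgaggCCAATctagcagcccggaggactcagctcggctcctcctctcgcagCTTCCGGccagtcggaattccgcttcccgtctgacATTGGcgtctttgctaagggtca
Cox6b2: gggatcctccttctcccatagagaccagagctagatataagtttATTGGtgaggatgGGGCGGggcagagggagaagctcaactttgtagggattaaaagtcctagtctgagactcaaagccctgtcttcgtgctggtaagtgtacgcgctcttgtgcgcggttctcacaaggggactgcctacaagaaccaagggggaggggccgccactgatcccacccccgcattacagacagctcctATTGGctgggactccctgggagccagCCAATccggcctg
Cox6b1 held an inverted ETS motif 28 bases before the start. Cox6b2 held no ETS motif in this window and had an Sp motif 193 bases before the start. Each window had 3 CCAAT boxes counting both strands, the one nearest upstream of the start lying 74 bases before it in Cox6b1 and 9 bases before it in Cox6b2, and CpG dinucleotides numbered 17 and 10 in the full 300-base entries.

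Cox7a1, the heart and skeletal muscle form of subunit 7a, had its highest start level in macrophage or dendritic cell-like cells. These had 48.9 CPM (45.9 to 52.1) in old replicate 1 and 61.4 CPM (43.9 to 83.6) in the young library. Proximal tubule-like cells had 15.2 (10.0 to 22.1), 18.6 (16.9 to 20.4) and 19.99 CPM (18.6 to 21.4), and the intervals of the 2 classes did not overlap within either library that held both. T or NK cell-like cells lay between, at 36.9 CPM (31.8 to 42.5) in old replicate 1. The ubiquitous Cox7a2 had 69.7 and 76.7 CPM in the macrophage class and 37.4, 40.0 and 45.4 CPM in proximal tubule-like cells. Per kb of peak Cox7a1 was below Cox7a2 in 14 of 14 values. The related Cox7a2l, known for its part in joining complexes III and IV into supercomplexes, was lower than Cox7a2 in 6 of 14 values, so those starts had no fixed order. Cox7a1 lies on the plus strand (chr7:30183921-30184200) and Cox7a2 on the minus strand (chr9:79759824-79760103).
Cox7a1: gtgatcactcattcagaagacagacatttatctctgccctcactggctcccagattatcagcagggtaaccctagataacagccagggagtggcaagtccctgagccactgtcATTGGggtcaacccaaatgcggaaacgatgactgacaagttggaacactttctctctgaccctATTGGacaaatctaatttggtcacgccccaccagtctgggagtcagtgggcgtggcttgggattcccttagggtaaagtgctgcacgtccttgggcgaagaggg
Cox7a2: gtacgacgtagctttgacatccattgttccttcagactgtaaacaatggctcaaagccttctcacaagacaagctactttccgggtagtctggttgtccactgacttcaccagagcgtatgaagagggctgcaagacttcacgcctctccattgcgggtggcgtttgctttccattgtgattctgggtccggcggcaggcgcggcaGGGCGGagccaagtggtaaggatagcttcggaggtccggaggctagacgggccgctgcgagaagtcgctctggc
The muscle form held 2 inverted CCAAT boxes, 137 and 74 bases before the start. The ubiquitous form held an Sp motif 44 bases before the start and none of the other motifs. CpG dinucleotides numbered 7 and 20 in the full entries.

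In the other pairs the restricted form had few counts or no peak at its start. Cox4i1, the ubiquitous form of subunit 4, ranged from 7.41 to 95.7 CPM per kb over its gene ends, in a region that also lies in the window of Emc8. The lowest of these values is from the young library, where 2 peaks were counted against 1 in each old library. Cox4i2, the lung form that is known to respond to low oxygen, ranged from 0 to 4.96 CPM per kb there. Over its gene body Cox4i2 had 8.995, 14.0 and 11.7 CPM in proximal tubule-like cells, but its only common region also lies in the window of Bcl2l1. Cox6a1 ranged from 32.3 to 78.8 CPM per kb at its start, and Cox6a2, the heart and muscle form, from 0 to 3.96 over its gene ends. Over gene bodies their medians were 38.5 and 10.1 CPM per kb. The highest Cox6a2 level over its ends was 6.35 CPM (5.31 to 7.53), in macrophage or dendritic cell-like cells of old replicate 1. No peak was called at its ends in the young library. Cox7b, the ubiquitous form of subunit 7b on the X chromosome, had 9.84, 13.0 and 13.9 CPM in proximal tubule-like cells. Cox7b2, its testis form, had no peak within 1 kb of the start in any library. The nearest peak of the young library lay 1988 bases downstream, that of old replicate 2 lay 2002 bases downstream and that of old replicate 1 lay 45154 bases upstream. Cox8a had 86.6, 75.2 and 81.8 CPM in proximal tubule-like cells. For Cox8b, the heart and muscle form, the nearest peaks lay 2567, 2593 and 2615 bases upstream.

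**Figure D2:**
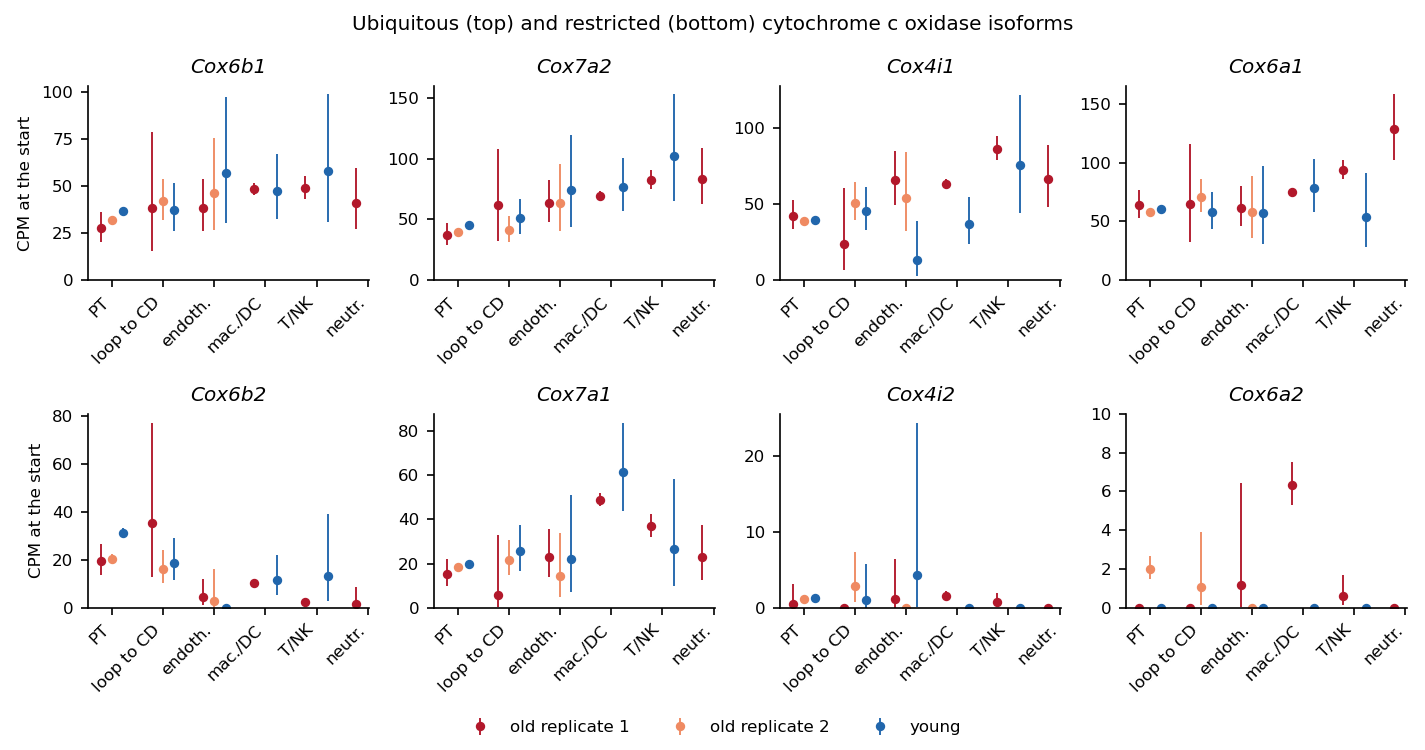
CPM within 1 kb of the annotated start (for Cox4i1, Cox4i2 and Cox6a2, of both gene ends) by class (PT, proximal tubule-like; loop to CD, loop to collecting duct-like; endothelium-like; mac./DC, macrophage or dendritic cell-like; neutrophil-like; T/NK, T or NK cell-like) and library. The top row shows ubiquitous and the bottom row restricted forms on separate linear axes, and bars are exact 95% Poisson intervals, absent where the count is 0. Cox6b2 is at 19.4, 20.5 and 31.3 CPM in proximal tubule-like cells and 2.54 CPM in T or NK cell-like cells of old replicate 1, and Cox7a1 is highest in the macrophage class.

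The sequences of these pairs show an open ubiquitous form next to a restricted form without a peak. Cox7b lies on the plus strand (chrX:106015450-106015729), and Cox7b2 (chr5:71548176-71548455), Cox8a (chr19:7217587-7217866) and Cox8b (chr7:140900417-140900696) lie on the minus strand.
Cox7b: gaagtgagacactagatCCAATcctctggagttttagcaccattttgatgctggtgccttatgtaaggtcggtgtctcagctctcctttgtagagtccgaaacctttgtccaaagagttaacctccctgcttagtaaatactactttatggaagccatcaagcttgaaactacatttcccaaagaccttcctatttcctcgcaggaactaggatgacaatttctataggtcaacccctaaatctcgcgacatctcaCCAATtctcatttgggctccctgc
Cox7b2: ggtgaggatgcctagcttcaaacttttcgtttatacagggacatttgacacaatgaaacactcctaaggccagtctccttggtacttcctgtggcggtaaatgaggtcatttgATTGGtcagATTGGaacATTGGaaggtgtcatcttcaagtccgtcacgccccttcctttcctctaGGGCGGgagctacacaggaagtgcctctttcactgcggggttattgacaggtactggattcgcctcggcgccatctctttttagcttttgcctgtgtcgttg
Cox8a: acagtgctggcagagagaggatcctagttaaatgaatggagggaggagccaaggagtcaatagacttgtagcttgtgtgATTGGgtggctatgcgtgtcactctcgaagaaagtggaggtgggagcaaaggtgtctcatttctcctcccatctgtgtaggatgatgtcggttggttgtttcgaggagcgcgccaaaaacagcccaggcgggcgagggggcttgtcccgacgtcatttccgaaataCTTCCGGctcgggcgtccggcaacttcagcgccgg
Cox8b: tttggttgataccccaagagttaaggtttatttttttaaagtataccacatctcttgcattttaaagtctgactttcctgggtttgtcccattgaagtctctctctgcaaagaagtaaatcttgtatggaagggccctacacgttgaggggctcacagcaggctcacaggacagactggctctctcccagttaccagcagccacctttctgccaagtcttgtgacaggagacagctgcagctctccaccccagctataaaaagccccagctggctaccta
Cox8a held an inverted CCAAT box, an inverted ETS motif 5 bases before the start and another that begins 32 bases after it, outside the printed stretch. Cox8b held none of the motifs, and its full entry had 2 CpG dinucleotides against 19 in Cox8a. Cox7b2 held 3 inverted CCAAT boxes and an Sp motif, and Cox7b 2 CCAAT boxes. CCAAT and Sp letters thus also occurred at a start without a peak, that of Cox7b2.

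The c subunit of ATP synthase is coded by Atp5g1, Atp5g2 and Atp5g3, whose products are known to differ in the leader that is cut off on import. Their starts held one order in every class and library. Per kb of peak Atp5g2 was below Atp5g1, and Atp5g3 below Atp5g2, in 14 of 14 values. In proximal tubule-like cells Atp5g1 had 154, 120 and 143 CPM, Atp5g2 had 63.5, 66.6 and 71.4 CPM, and Atp5g3 had 25.02, 30.6 and 27.6 CPM. For Uqcrh, the hinge subunit of complex III, the annotation used here lists no symbol Uqcrhl, so no pair was compared.

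**Figure D3:**
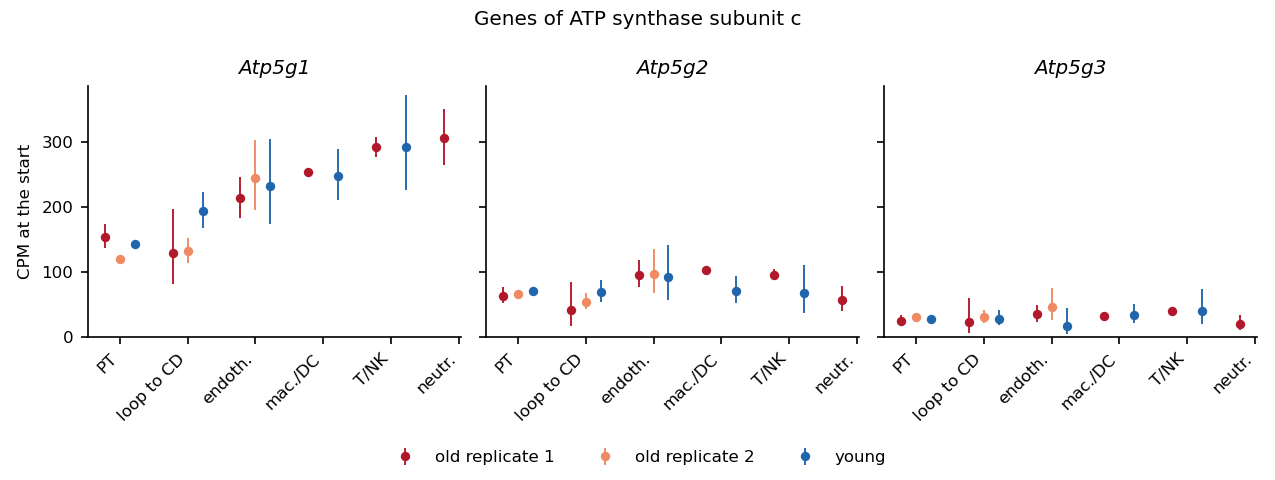
CPM within 1 kb of the annotated start of the 3 genes of ATP synthase subunit c by class and library (class names as PT, loop to CD, endothelium, macrophage or dendritic cell, neutrophil, and T or NK cell), with exact 95% Poisson intervals. Atp5g1 is highest and Atp5g3 lowest throughout, with proximal tubule-like levels of 154, 120 and 143 CPM against 25.02, 30.6 and 27.6 CPM.

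Promoters were then compared with those of other genes. RefSeq entries of 300 bases matched 36 coding members. A peak of every library overlapped 33 of these (91.7%), against 58.4% of 17492 coding genes. Cox7b2 and Cox8b had no overlapping peak in any library, and Cox6b2 had one in old replicate 1 alone. Among members 36.1% held the ETS letters, against 20.02% of the 10212 coding genes with a peak of every library at the promoter and 12.95% of all coding genes. The NRF1 core occurred in 22.2% of members against 7.27% and 4.96%, and the ERR letters in 13.9% against 3.83% and 4.73%. The full NRF1 letters occurred in 11.1% of members against 2.33% and 1.47%. These 4 members were Atp5g2, Atp5k, Cox6a1 and Uqcrc1. The Sp letters went the other way, at 38.9% of members against 70.5% and 49.2%. CCAAT occurred in 55.6%, 43.5% and 42.3%, YY1 in 8.33%, 5.11% and 3.57% and the E-box in 11.1%, 11.9% and 8.91%. No member held the MEF2 letters, which occurred in 17 coding genes. The full NRF1 letters contain the core, and all shares are descriptions without a test. The G and C content of member promoters had a median of 56.2%, against 61.3% for the coding genes with a peak of every library.

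**Figure D4:**
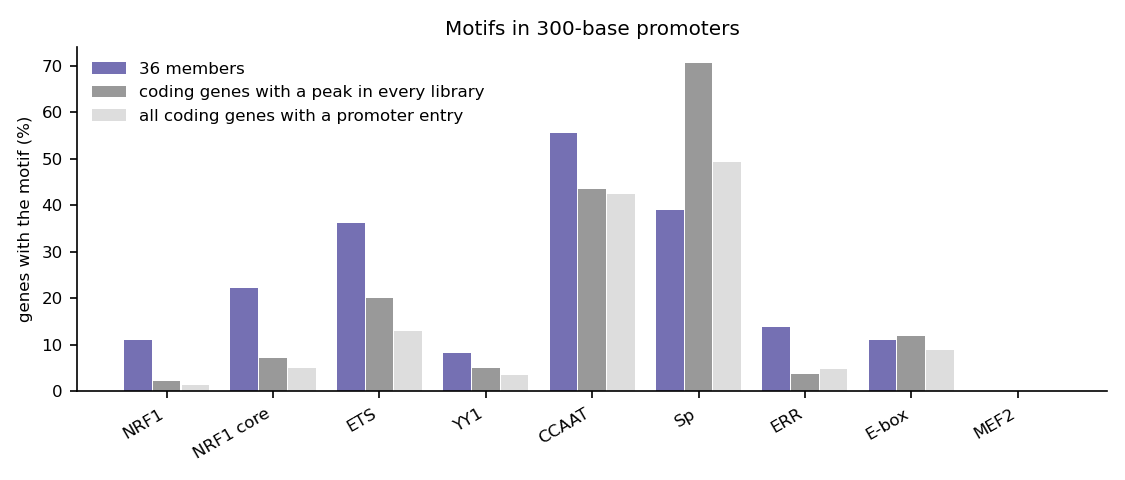
Percent of genes whose 300-base promoter holds each motif on either strand, for the 36 members with an entry, for the 10212 coding genes with a peak of every library at the promoter, and for all 17492 coding genes with an entry. ETS letters are in 36.1% of members against 20.02% of open promoters, and Sp letters in 38.9% against 70.5%.

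The promoter of Atp5j is printed because it holds NRF1 core, YY1 and ETS letters together in the start region it shares with Gabpa, which codes for the DNA-binding subunit of GABP. It was chosen after its motifs had been seen. It lies on the minus strand (chr16:84834947-84835226). Atp5j has another promoter entry (chr16:84835576-84835875), which no peak of any library overlapped. Of the motifs searched, that entry held the Sp letters only.
Atp5j: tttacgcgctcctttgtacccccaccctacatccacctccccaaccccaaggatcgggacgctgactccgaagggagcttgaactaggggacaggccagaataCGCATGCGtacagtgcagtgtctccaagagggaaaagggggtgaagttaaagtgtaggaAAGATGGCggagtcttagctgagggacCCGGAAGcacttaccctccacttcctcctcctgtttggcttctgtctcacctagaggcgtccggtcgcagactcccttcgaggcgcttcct
The NRF1 core occurs on both strands, 147 and 146 bases before the start, YY1 88 bases and ETS 61 bases before it. Atp5j over its gene body had 83.5, 65.2 and 73.5 CPM in proximal tubule-like cells, with the young library between the old ones.

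Old and young libraries were compared next, to ask whether the accessibility of respiratory chain genes differed with age in mutant kidney. In proximal tubule-like cells no member passed an adjusted p of 0.05 in either direction (edgeR's quasi-likelihood test, Benjamini-Hochberg over 25550 genes, of which 0.654% passed). None of the 48 members tested had an unadjusted p under 0.05, against 4.56% of all genes, and DESeq2 also called 0. On simulated counts edgeR recovered 27.8% of log2 changes of 1 in this class, so 0 calls do not show equal levels. The median log2 change, old minus young, was -0.016 for members and 0.0031 for all genes. All 46 coding members lay within 0.5 of 0, as did 1 of 2 pseudogenes, against 87.6% of all genes tested. The young library lay outside the range of the old ones for 23 of 48 members, against 58.2% of all genes.

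Complex II stayed within 0.3 on the log2 scale. Sdha had 48.1, 39.7 and 35.7 CPM, a log2 change of 0.27 (95% interval from the standard error and degrees of freedom of the test, -0.20 to 0.74). Both old levels were above the young one. Sdhb had 132, 133 and 150 CPM and a change of -0.18 (-0.55 to 0.19), with both old levels below the young one. The membrane anchors Sdhc and Sdhd changed by -0.098 (-0.49 to 0.29) and 0.069 (-0.39 to 0.53). These are values of genes that did not pass the test.

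Complex III spanned a narrower range than complexes II, IV and V. Its 9 members ran from Uqcrb at -0.14 (-0.66 to 0.37) and Uqcrq at -0.11 to Uqcrfs1, the Rieske iron-sulphur protein, at 0.0095 and the core protein Uqcrc1 at 0.011 (-0.42 to 0.44). Uqcrc1 had 50.9, 52.9 and 51.4 CPM, with the young library between the old ones. In complex IV the lowest member was the testis form Cox6b2, with 26.7, 24.6 and 35.6 CPM over the gene body and a log2 change of -0.49 (-1.02 to 0.041, adjusted p = 0.99999 by edgeR). Both old levels were below the young one. With only the clusters that held at least 10 cells of every library (176, 3125 and 178 cells) the values of Cox6b2 were 26.8, 24.7 and 16.3 CPM and the log2 change was 0.64, so the sign turned with the cells chosen. Cox6b1 had 32.9, 39.7 and 43.8 CPM (-0.25, interval -0.72 to 0.21), and the highest members were Cox4i1 at 0.063 and Cox5a at 0.12 (-0.32 to 0.56). In the shared clusters these were -0.11 and -0.047, and 20 of 48 members had the opposite sign there.

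In complex V the coding members ran from Atp5e, the ε subunit, with 55.7, 53.3 and 63.4 CPM (-0.23, interval -0.65 to 0.19) to Atp5k, the e subunit of the membrane part, with 35.7, 30.3 and 26.1 CPM (0.31, interval -0.22 to 0.84). The pseudogene Atp5l-ps2 had the largest change of any member, 1.36 (-0.038 to 2.75), at 4.50, 6.76 and 2.26 CPM. Its region also lies in the window of Brip1. The other pseudogene, Atp5l2-ps, had -0.22 (-0.80 to 0.35), in a region that also lies in the window of Cwc25. In the clusters shared by all libraries 1 member passed: Atp5l, the g subunit, had 32.4, 36.5 and 62.3 CPM and a log2 change of -0.86 (SE 0.26, adjusted p = 0.033 by edgeR's quasi-likelihood test), in a fit in which 3.59% of 24552 genes were called. Over all cells of the class Atp5l had 32.9, 37.6 and 38.0 CPM and a change of -0.10 (-0.58 to 0.38). At least 1 of its counted regions also lies in the window of Ube4a. The shared clusters were filled unevenly, cluster 9 with 119, 218 and 16 cells and cluster 0 with 27, 2345 and 91.

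**Figure D5:**
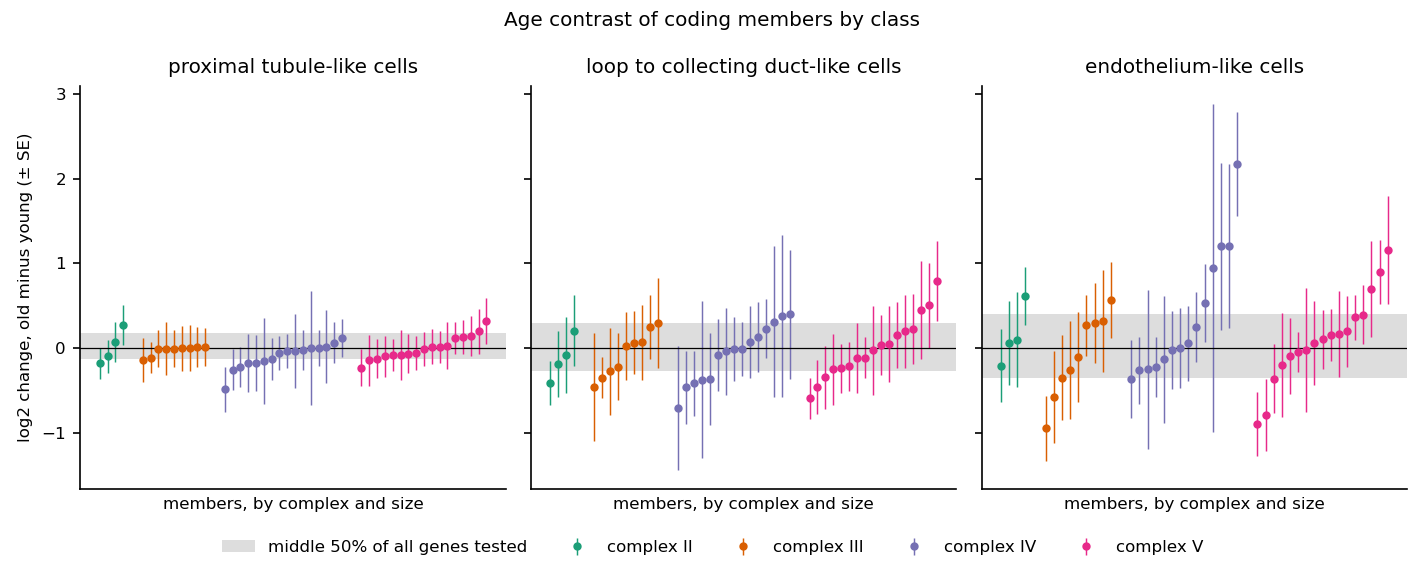
Log2 change, old minus young, with its standard error for each coding member tested, ordered by size within complex, in proximal tubule-like, loop to collecting duct-like and endothelium-like cells. The grey band holds the middle 50% of all genes tested. Changes in proximal tubule-like cells lie between -0.49 and 0.31, and the highest point in endothelium-like cells is Cox4i1 at 2.17.

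In loop to collecting duct-like cells, which run from the loop of Henle to the collecting duct and adjust salt and water, 0 of 46 members tested were called by edgeR or by DESeq2, and none had an unadjusted p under 0.05. Among all 22842 genes 0% were called by edgeR, 182 having an unadjusted p under 0.05, and DESeq2 called 0. Here old replicate 1 gave only 27 cells. The members' median log2 change was -0.020, that of all genes -0.010, and 42 of 46 members lay within 0.5 of 0 against 72.4% of all genes. The young library lay outside the old range for 22 of 46 members, against 60.7% of all genes. Complex II had its lowest value in Sdhb, at 121, 113 and 152 CPM (-0.41, interval -1.04 to 0.21), where both old levels were below the young one, and its highest in Sdhd (0.21, interval -0.82 to 1.23). Sdhc had -0.19 and Sdha -0.082. Complex III ran from Cyc1, cytochrome c1, at -0.46 (-2.02 to 1.11) and Uqcrq at -0.35 (-0.94 to 0.24) to Uqcr10 at 0.25 and Uqcrb at 0.29 (-1.01 to 1.60). Complex IV ran from Cox7a1 at 5.90, 22.4 and 27.6 CPM (-0.71, interval -2.51 to 1.09) and Cox5b at -0.46 (-1.51 to 0.59) to Cox4i2 at 0.38 (-1.96 to 2.72) and Cox6b2 at 0.40 (-1.46 to 2.26). The level of 5.90 CPM rests on 2 counts.

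In complex V of this class, Atp5g1 had 130, 132 and 194 CPM, with both old levels below the young one, and a log2 change of -0.59 (-1.19 to 0.0038, adjusted p = 0.9999 by edgeR). Atp5b had 82.6, 127 and 150 CPM (-0.46, interval -1.25 to 0.33). Atp5j2, the f subunit, had 0.51 (-0.72 to 1.73). Atp5mpl, a small protein bound to the synthase, had 38.4, 42.9 and 23.4 CPM, with both old levels above the young one, and a change of 0.79 (-0.36 to 1.95). Whether the age contrast differed between the loop to collecting duct-like and proximal tubule-like classes was tested with an interaction term and library as a block. No member of 48 passed, none had an unadjusted p under 0.05 against 1.73% of all genes, and the smallest unadjusted p was 0.12 for Atp5b, at a difference of -0.50 (-1.12 to 0.13). In that fit 3 of 24965 genes passed, all lower.

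Endothelium-like cells gave a wider spread of members than either tubule class, with 38 young cells. Of 45 members tested 0 were called by edgeR or DESeq2, against 0.438% of 17796 genes by edgeR, and 4 had an unadjusted p under 0.05, against 9.72% of all genes, a share near that of the members. The median log2 change was 0.057 for members and 0.021 for all genes, 31 of 45 members lay within 0.5 of 0 against 60.8% of all genes, and the young library lay outside the old range for 33 of 45 members against 74.4% of all genes. The summed level of 13 proximal tubule markers with a common region was 103, 115 and 248 CPM in this class, 6, 6 and 4 of them being at 0. That of 10 endothelium markers was 1059, 893 and 864 CPM with none at 0. Immune markers, 22 with a common region, summed to 761, 652 and 732 CPM. The 28 loop to collecting duct markers with one summed to 423, 450 and 506 CPM. The part of tubule DNA in these changes was not tested.

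Cox4i1 had the highest change. It had 65.4 (49.6 to 84.8), 53.7 (32.3 to 83.9) and 13.2 CPM (2.71 to 38.4), so both old levels lay above the young one, which rests on 6 counts. The log2 change was 2.17 (SE 0.61, adjusted p = 0.069 by edgeR). With doublets kept it was 0.99 (adjusted p = 0.48). In proximal tubule-like cells the same region had 42.2, 38.8 and 38.3 CPM. The other members with an unadjusted p under 0.05 were Uqcr10 and Atp5c1, which were lower in old cells, and Atp5j, which was higher. The start region of Uqcr10 is shared with Zmat5, and the only counted region of Atp5c1 is shared with Kin. Uqcr10, a small subunit of complex III, had 53.3, 61.0 and 107 CPM (-0.94, interval -1.70 to -0.19, adjusted p = 0.35 by edgeR). Atp5c1, the γ subunit of the rotor, had 62.6, 52.2 and 107 CPM (-0.90, interval -1.64 to -0.15, adjusted p = 0.38). Atp5j had 117, 104 and 59.2 CPM (0.90, interval 0.15 to 1.64, adjusted p = 0.39), in the start region it shares with Gabpa.

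Among the remaining members of this class, Atp5g3 had 34.8, 46.4 and 17.5 CPM (1.16, interval -0.087 to 2.40) and Atp5o, the oligomycin sensitivity protein, had 41.7, 52.2 and 78.9 CPM (-0.79, interval -1.63 to 0.046). Complex II ran from Sdhc at -0.21 through Sdhd at 0.059 and Sdha at 0.10 to Sdhb at 123, 129 and 81.1 CPM (0.62, interval -0.056 to 1.29). The sign of Sdhb in endothelium-like cells was thus opposite to that in both tubule classes, and that difference was not tested. Complex III also held Uqcrc1 at -0.58 (-1.64 to 0.49), Uqcrb at 0.32 (-0.86 to 1.51) and Uqcrh at 0.57 (-0.32 to 1.45). Complex IV also held Cox6b1 at -0.36 (-1.28 to 0.55), Cox7a2 at -0.26 (-1.03 to 0.50) and Cox7b at 1.20 (-0.70 to 3.11).

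In the immune classes old replicate 2 had at most 4 cells of each, so old replicate 1 was set against the young library without a test. No member with at least 10 counts in both differed by 2-fold or more. In macrophage or dendritic cell-like cells this was 0 of 46 members, against 7.02% of 17699 genes, and in T or NK cell-like cells 0 of 41 members, against 9.72% of 13380 genes. The median log2 ratios, old replicate 1 over young, were -0.057 and -0.0015. The highest ratio in the macrophage class was that of Cox4i1, 0.77 (0.19 to 1.36), at 63.0 and 36.8 CPM, and the lowest that of Atp5l, -0.50 (-0.94 to -0.067). In T or NK cell-like cells the highest was Cox6a1 at 0.81 (0.018 to 1.61) and the lowest Atp5k at -0.72 (-1.43 to -0.0074). These intervals cover counting error in 1 library of each age.

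Other genes of the pathway were taken from lists fixed by symbol. No gene of any list passed in any class tested by edgeR. In proximal tubule-like cells the 40 complex I subunits tested had a median log2 change of -0.057, from Ndufs6b at -0.80 to Ndufb4b at 0.74. The 35 assembly factors of complexes II to V had 0.015, from Tmem70 at -0.29 to Cox16 at 0.28, and the 7 electron and adenine nucleotide carriers had -0.013, from Vdac2 at -0.14 to Cycs, cytochrome c, at 0.0068. The 17 regulators had -0.011, from Gabpb1, a partner subunit of GABP, at 60.4, 85.1 and 105 CPM (-0.51, interval -0.88 to -0.13, adjusted p = 0.47 by edgeR) to Esrrb at 0.14. Both old levels of Gabpb1 were below the young one and they also differed from each other. In loop to collecting duct-like cells the list medians were -0.095 for complex I, -0.0037 for assembly factors, -0.18 for carriers and -0.11 for regulators. The extremes there were Uqcc3 at -0.96 and Atpaf1 at 1.56 among assembly factors, Vdac2 at -0.57 and Slc25a5 at 0.51 among carriers, Gabpb2 at -0.57 and Pprc1 at 0.20 among regulators, and Ndufa5 at -0.54 and Ndufs6b at 0.57 in complex I.

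In endothelium-like cells the list medians were 0.055 for complex I, -0.20 for assembly factors, -0.18 for carriers and -0.10 for regulators, against 0.021 for all genes. Ppargc1a, the coactivator known to promote mitochondrial gene expression, had 41.7, 49.3 and 107 CPM (-1.28, interval -2.06 to -0.49, adjusted p = 0.13 by edgeR), with both old levels below the young one. Nrf1, which binds the NRF1 motif, had 38.2, 46.4 and 19.7 CPM (1.06, interval -0.14 to 2.26). Ndufb11 of complex I had 39.4, 40.6 and 96.4 CPM (-1.29, interval -2.105 to -0.47, adjusted p = 0.16 by edgeR), and Ndufa9 had 25.5, 20.3 and 8.77 CPM (1.38, interval -0.40 to 3.16). Vdac1, the outer membrane channel, had 45.2, 34.8 and 11.0 CPM (1.86, interval 0.49 to 3.24, adjusted p = 0.28 by edgeR), and Slc25a5 had -0.36. Among assembly factors Atpaf1 had -1.13 (-3.39 to 1.12) and Surf1 0.93 (-0.47 to 2.32).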

How the data were processed

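The authors deposited raw counts per peak and barcode, made for each library alone with Cell Ranger ATAC 2.1.0 on mm10, per the file headers and the submitters' processing notes. Members and gene lists were chosen with earlier results of these data known. Barcodes with at least 1000 counts were kept, scored doublets removed (248, 133 and 135), and cells clustered (30 latent components, 20 neighbours, Leiden resolution 1). Clusters were named from marker lists. Counting markers over all merged regions and setting Aqp1 aside were chosen after the clusters had been seen, and 3 clusters stayed unnamed. Peaks were merged into 250005 regions, of which 72317 had a peak in every library. Counts in these were summed per class and library over gene bodies with 2 kb on each side. They were tested with edgeR 4.0.16 (quasi-likelihood, TMM, filterByExpr, Benjamini-Hochberg over all genes, threshold 0.05), after tests on simulated data. With a fixed simulated spread between libraries, log2 changes of 1 were recovered in 27.8% of cases in proximal tubule-like cells. In loop to collecting duct-like and endothelium-like cells the shares were 10.98% and 8.68%, so most changes of that size were missed. For log2 changes of 2 the shares were 98.6%, 76.9% and 69.2%. DESeq2 1.42.0 was an alternative. R was 4.3.3 and Python 3.11.15. Poisson intervals used fragments, taken as counts divided by 2. Promoter sequences and gene starts came from RefSeq (GRCm38.p6). The text names the isoform pairs, complex II, and in each complex the 2 highest and 2 lowest members by class, and the highest and lowest gene of each other list.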

Additional observations from a re-analysis of the deposited data

How the results depend on the processing

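In proximal tubule-like cells the number of members past the threshold was 0 with 3 libraries, except with clusters shared by all libraries (1, Atp5l). Leaving out 1 old library leaves 1 against 1, which gives values and no test. The members' median log2 change there was -0.0141 with RLE size factors, -0.0421 with all merged regions, -0.0217 with at least 3000 counts per barcode, -0.0881 with shared clusters, -0.0259 with doublets kept, -0.0322 with fragments, -0.0281 with start windows and -0.0512 to -0.0486 leaving out 1 old library. In loop to collecting duct-like cells it was -0.0719 with doublets kept and -0.1447 to -0.1147 leaving out 1 old library. In endothelium-like cells it was 0.042 with DESeq2, 0.0472 with RLE size factors, 0.0186 with all merged regions, 0.0835 with doublets kept, 0.0129 with fragments, 0.1244 without the low-count filter, 0.0064 with start windows, 0.0114 with windows at both gene ends (added after seeing the data) and 0.042 to 0.0527 leaving out 1 old library. The cause of these shifts was not tested. Calls over all genes in proximal tubule-like cells numbered 167, against 69 with DESeq2, 0 with all merged regions, 7 with start windows, 68 with both gene ends and 881 with shared clusters. In loop to collecting duct-like cells they numbered 0, against 1 without the filter, 2 with all merged regions, 35 with doublets kept and 7 with fragments. In endothelium-like cells they numbered 78, against 6 with RLE size factors, 2 with DESeq2, 0 with all merged regions, 21 with start windows, 22 with both gene ends and 11 with fragments. No paired analysis of old and young was possible, because the labels link no old library to the young one. With 1 young library, its own deviation and age cannot be told apart. Among the classes tested, depth was lowest in 27 loop to collecting duct-like cells of old replicate 1 and 38 young endothelium-like cells. Young T or NK cell-like cells, compared without a test, held 448391 counts, below the 456240 of young endothelium-like cells.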
